A study of Homo sapiens with 3 samples.

Results

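Genes for 10 surface antigens and cytokine receptors of acute myeloid leukemia (AML) were followed in Molm13 cells treated with pyrvinium. They were taken by Entrez identifier from a list of names and are 10 of the 25702 genes in the count tables. The rule itself uses no measured value, but the list was chosen with earlier results of these data known. The list holds the receptor chains IL3RA, CSF2RA, CSF2RB and CSF1R, the antigens CD33, CD47, CD44 and CD38, the integrin chain ITGAM and the costimulatory ligand CD86. All 10 passed the filter of at least 10 counts in at least 1 library, as did 12879 genes in all.

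Molm13 is a human AML line with the FLT3 internal tandem duplication, and pyrvinium pamoate is an anthelmintic drug that the study tested against leukemia cells. Cells were exposed for 6 h to the vehicle DMSO or to pyrvinium at 50 nM or 100 nM before RNA sequencing. There was 1 library for each, from this 1 cell line, so no difference has a replicate check, and the tests compare libraries, not conditions. Library totals ran from 22677038 to 24075123 counts. RNA from 6 h of treatment gives transcript levels, and the amount of protein on the cell surface was not measured in these files. Of 11 myeloid marker genes, CD33 among them, 10 passed the count filter, and the exception was FCER1G, with 2, 6 and 9 counts in the DMSO, 50 nM and 100 nM libraries. The summed counts of these markers ran from 31154 to 36119 a library, whereas the summed counts of B cell, erythroid, megakaryocyte and epithelial or stromal markers were each at most 17. The T cell and NK cell lists each had 1 abundant gene, TRAC with 265, 345 and 414 counts and NCAM1 with 629, 797 and 942 counts, while CD3D, with 26, 18 and 13 counts, was in the opposite order and CD3E and CD2 were at 0 in every library. Their part in the results was not tested.

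Interleukin 3 and GM-CSF act on myeloid cells through receptors made of a cytokine-specific alpha chain, encoded by IL3RA or CSF2RA, and a shared beta chain, encoded by CSF2RB, which carries the signal to JAK2 and STAT5. CSF1R is the receptor tyrosine kinase for CSF1 and IL34 and is a hallmark of monocytes and macrophages. CD33 and the IL3RA product CD123 are targets of antibody therapy in AML, and CD47 restrains phagocytosis by binding SIRPA on macrophages.

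The genes of the 2 alpha chains lie close together in the first pseudoautosomal region, and their promoters are shown because both transcripts were higher at 100 nM. RefSeq promoter windows were given for 9 of the 10 genes. CSF2RB had none and was not searched. The 250 bases before the annotated start are printed 5′ to 3′ for the X copy in GRCh38.p14, plus strand. IL3RA spans chrX:1336535-1336784 and CSF2RA spans chrX:1268564-1268813. Capitals mark the STAT-type letters TTCNNNGAA in IL3RA and the ETS-type letters GAGGAA in CSF2RA.
IL3RA: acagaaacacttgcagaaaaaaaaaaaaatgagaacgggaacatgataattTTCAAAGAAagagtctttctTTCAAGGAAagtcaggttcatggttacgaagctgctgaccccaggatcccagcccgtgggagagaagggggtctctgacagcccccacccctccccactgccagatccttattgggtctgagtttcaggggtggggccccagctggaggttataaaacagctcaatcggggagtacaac
CSF2RA: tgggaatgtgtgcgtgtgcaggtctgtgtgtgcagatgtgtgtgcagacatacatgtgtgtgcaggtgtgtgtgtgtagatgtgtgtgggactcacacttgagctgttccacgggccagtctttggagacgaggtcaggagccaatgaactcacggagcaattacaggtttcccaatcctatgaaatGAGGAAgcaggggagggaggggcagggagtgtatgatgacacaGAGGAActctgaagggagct

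Of the possible motifs, 4 sets of letters were searched on both strands of the 250 bases, a choice made after the expression values were seen. TTCNNNGAA was in the window of IL3RA, at 2 places, and in 6.57% of all 35116 windows. It was in no window of another of the 9 genes that had one. GAGGAA was in windows of CSF2RA, CD33, CD86, CSF1R and ITGAM, and in 23.6% of all windows. TGANTCA, of the AP-1 type, was in a window of CSF1R and in 6.57% of all windows. TGATGCAA, of the composite C/EBP and ATF type, was in none of the 11 windows of these genes and in 0.772% of all windows. These matches describe letters in a short window, and no binding was measured.

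The level of each transcript without drug was compared first. Levels are given as reads per kilobase of exon per 1000000 scaled counts (RPKM), so that long and short genes can be set side by side, with an exact 95% Poisson interval that covers counting error only. CD33, a sialic acid-binding receptor of the Siglec family, had the highest level in DMSO, 54.0 (51.7 to 56.4), at percentile 87.9 of the genes tested. IL3RA followed at 17.1 (15.8 to 18.4) and CD47 at 15.4 (14.7 to 16.1), and their intervals overlapped. CSF2RA was at 11.3 (10.4 to 12.2), and it was the last gene above the median level of all genes tested, 9.15. Levels of IL3RA and CSF2RA use the exon length of 1 copy, 1710 and 2298 bases. With the deposited lengths of 3420 and 4596 bases, which add both copies, both would lie below that median. The shared beta chain CSF2RB was below that median, at 6.90 (6.42 to 7.40).

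The other 5 genes were all at or below percentile 23.6 in DMSO. CD86, which engages CD28 and CTLA4 on T cells, had a level of 2.07 (1.74 to 2.45). CSF1R was lower, at 1.29 (1.07 to 1.54). ITGAM, the alpha chain of the integrin Mac-1, was at 0.527 (0.40 to 0.68), and its interval overlapped that of CD38, an ectoenzyme that consumes NAD, at 0.260 (0.119 to 0.494). The hyaluronan receptor CD44 came last, at 0.173 (0.110 to 0.260) and percentile 3.82, and could not be separated from CD38. The DMSO counts behind the last 2 genes were 23 for CD44 and 9 for CD38. The list name therefore covers transcripts that were abundant in these cells and transcripts that were barely counted. At 50 nM the level of CD38 was above that of ITGAM, with overlapping intervals, and the order was otherwise the same in the 3 libraries.

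**Figure D1:**
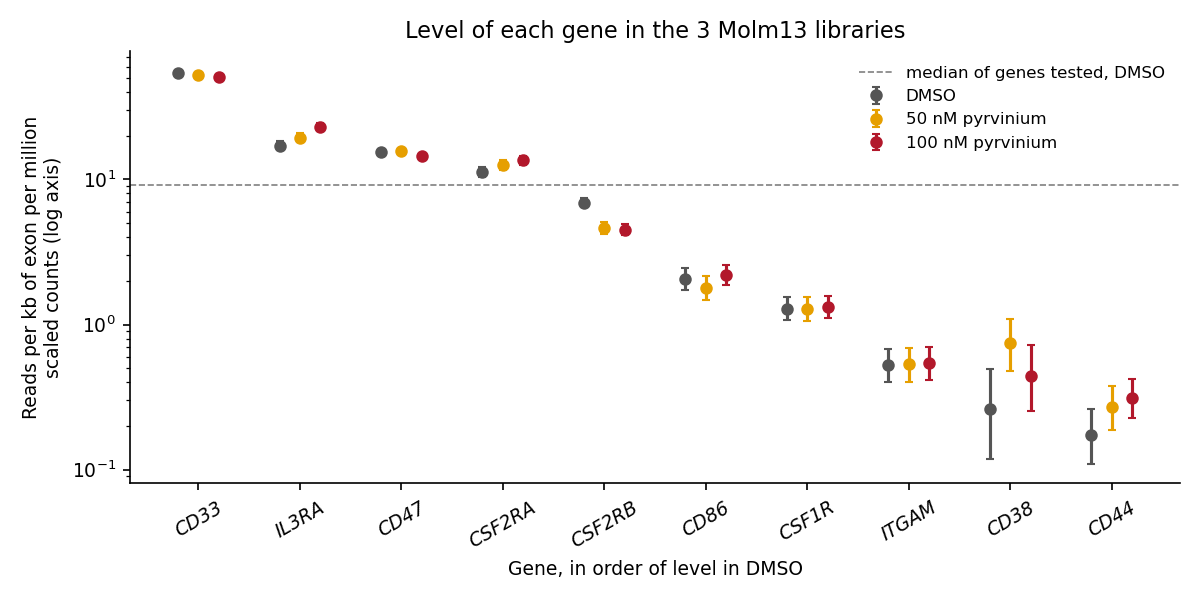
Level of each of the 10 transcripts in the DMSO, 50 nM and 100 nM libraries (1 library each), in RPKM on a log axis, with exact 95% Poisson intervals. The dashed line is the median of the genes tested in DMSO, 9.15. With the exon length of 1 copy for IL3RA and CSF2RA, 4 of the 10 genes lie above it in every library.

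The response was then asked of each dose against DMSO. A gene was said to be higher or lower where a two-sided exact binomial test on the counts of the 2 libraries, adjusted by Benjamini-Hochberg over all 12879 genes, gave an adjusted p of at most 0.05, and was called where it also differed by at least 2-fold. At 50 nM, 1 of the 10 genes was higher, CD38, beside 14.3% of all genes tested, and 1 was lower, CSF2RB, beside 13.9%. At 100 nM, 2 were higher, IL3RA and CSF2RA, beside 21.1% of all genes, and 1 was lower, CSF2RB, beside 22.0%. At 2-fold, 1 of 10 was called at 50 nM (CD38, beside 0.955% of all genes) and 0 at 100 nM (beside 2.20%). Between the doses, IL3RA was higher at 100 nM than at 50 nM, beside 7.69% of all genes, no gene of the list was lower, beside 9.25%, and none was called at 2-fold, beside 0.497%. The shares of the list were thus near or below those of all genes in each direction, apart from the single call at 2-fold. That call rested on CD38, which had 9 counts in DMSO and met the filter of 10 counts only in the treated libraries, where it was higher, so the call is no support for a change. The median log2 fold change of the 10 genes was 0.01 at 50 nM and 0.07 at 100 nM, beside 0.00 for all genes tested at each dose. Both doses were compared with the same DMSO library, so the 2 sets of values are not independent. The test covers counting error only: if cultures are assumed to vary with a biological coefficient of variation of 0.1, none of the 10 genes passed in any of the 3 comparisons.

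**Figure D2:**
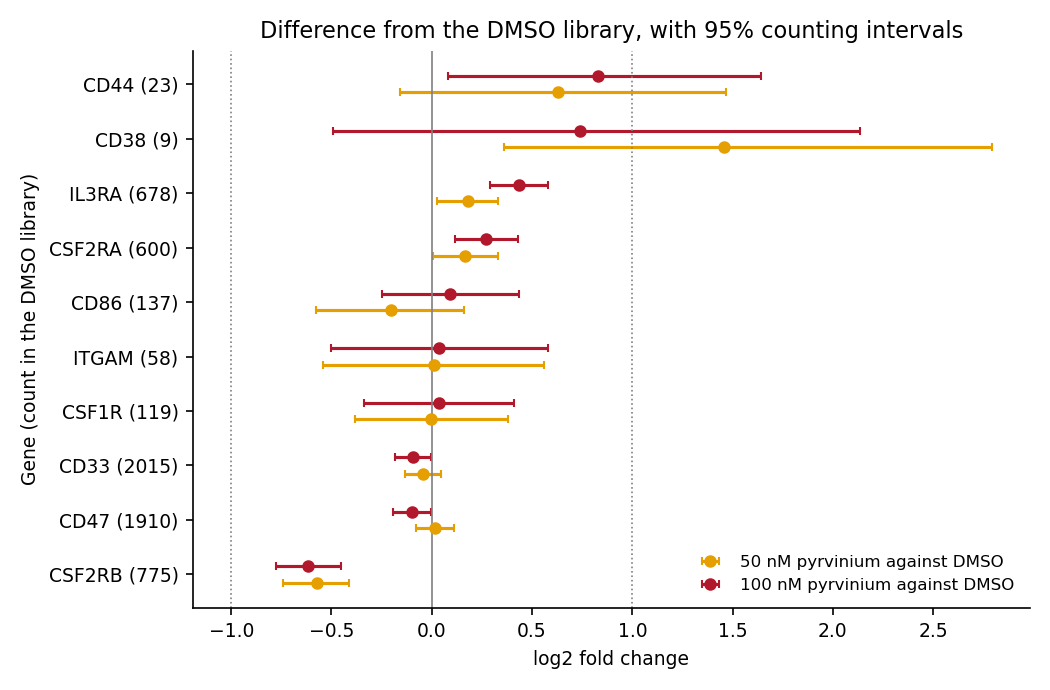
Log2 fold change of each gene at 50 nM and at 100 nM pyrvinium against the DMSO library, with exact 95% intervals for counting error and the DMSO count in parentheses. Dotted lines mark 2-fold. CSF2RB lies to the left of 0 at both doses (-0.57 and -0.62), IL3RA lies to the right (0.18 and 0.43), and the intervals of CD44 and CD38 are the widest.

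Among the receptor chains, the beta chain was lower at both doses. CSF2RB (chr22:37309675-37336481 in hg19) had 775 counts in DMSO, 508 at 50 nM and 526 at 100 nM. Both treated libraries were below DMSO and close to each other. At 50 nM its log2 fold change was -0.57, with a 95% interval of -0.74 to -0.41 and an adjusted p of the exact test of 5.8e-11. At 100 nM it was -0.62, with an interval of -0.78 to -0.45 and an adjusted p of the exact test of 4e-13. The 100 nM library differed from the 50 nM library by -0.04 (-0.22 to 0.14), within counting error. Over the 9979 genes averaging 100 counts or more, CSF2RB was at percentile 0.431 of the log2 fold changes at 50 nM and at percentile 1.47 at 100 nM.

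The alpha chains were higher at 100 nM. IL3RA (chrX:1455509-1501582 in hg19) had 678 counts in DMSO, 750 at 50 nM and 953 at 100 nM, in the order of the dose. Its log2 fold change was 0.18 at 50 nM (0.03 to 0.33, adjusted p of the exact test 0.066), which did not pass, and 0.43 at 100 nM (0.29 to 0.58, adjusted p of the exact test 1.7e-08). The step from 50 nM to 100 nM was 0.25 (0.11 to 0.39, adjusted p of the exact test 0.0036). CSF2RA (chrX:1387693-1428828 in hg19) had 600 counts in DMSO, 658 at 50 nM and 753 at 100 nM, also in the order of the dose. For CSF2RA the log2 fold change was 0.17 at 50 nM (0.01 to 0.33, adjusted p of the exact test 0.12) and 0.27 at 100 nM (0.11 to 0.43, adjusted p of the exact test 0.0022). The values of these genes were less extreme than those of the beta chain, at percentiles 93.8 for IL3RA and 85.9 for CSF2RA at 100 nM over the genes averaging 100 counts or more. Both genes are annotated on X and Y with the same sequence, and their reads cannot be assigned to one copy.

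Because an alpha and a beta chain form one receptor, their counts were also compared within each library, where the scaling of libraries plays no part. This comparison was chosen after the values were seen and is given without a test. IL3RA made up 46.7% of the IL3RA and CSF2RB counts in DMSO (exact 95% interval 44.1% to 49.3%). Its share was 59.6% in the 50 nM library (56.8% to 62.3%) and 64.4% in the 100 nM library (61.9% to 66.9%). CSF2RA made up 43.6% of the CSF2RA and CSF2RB counts in DMSO (41.0% to 46.3%). Its share was 56.4% in the 50 nM library (53.5% to 59.3%) and 58.9% in the 100 nM library (56.1% to 61.6%). Per exon length, the ratio of the level of IL3RA to that of CSF2RB was 2.48, 4.19 and 5.14 in the DMSO, 50 nM and 100 nM libraries. The ratio of CSF2RA to CSF2RB was 1.63, 2.73 and 3.02. With the length of 1 copy, each alpha chain was above the beta chain in level without drug. With the deposited length, which adds both copies, CSF2RB was above CSF2RA in DMSO. The count share of each alpha chain, which uses no length, was larger in both treated libraries. Both alpha chains were set against the same CSF2RB counts, so the 2 comparisons are not independent. They also reuse the counts behind the fold changes above and add no separate evidence. At 50 nM CSF2RB passed the test and neither alpha chain did.

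**Figure D3:**
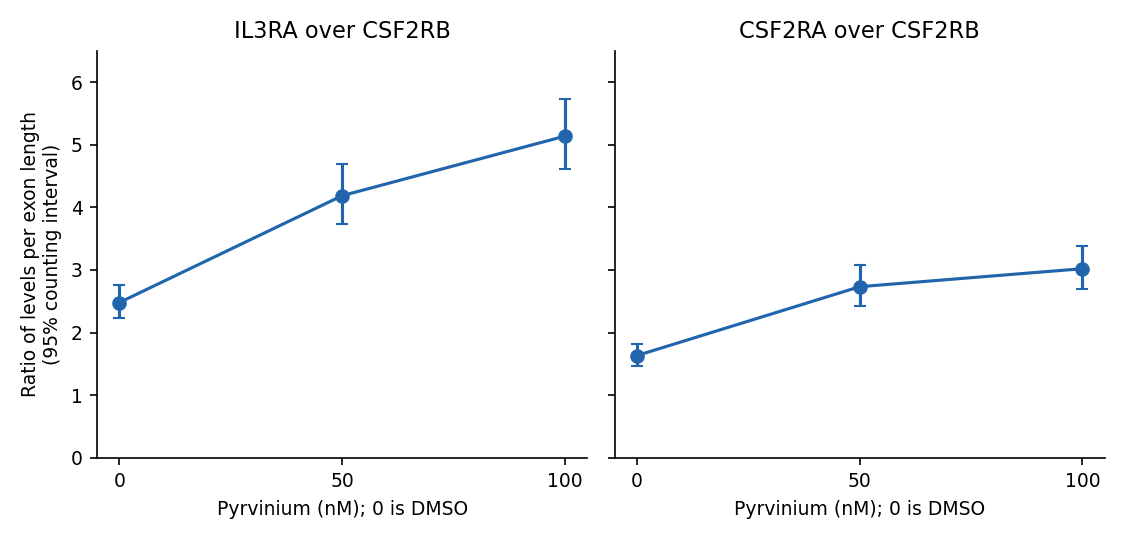
Ratio of the level of IL3RA (left) and of CSF2RA (right) to that of CSF2RB, per exon length, against the dose of pyrvinium in nM, with 0 for DMSO. Points are single libraries with exact 95% counting intervals, and the lines only join them. The DMSO ratios, 2.48 and 1.63, lie below both treated libraries in each panel.

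CSF1R (chr5:149432854-149492935 in hg19) had a count of 119 in DMSO, 116 at 50 nM and 127 at 100 nM, and its 3 levels lay close together. Its log2 fold change was -0.00 at 50 nM (-0.38 to 0.38) and 0.04 at 100 nM (-0.34 to 0.41). Of the ligands of the receptor chains, CSF1, IL34, CSF2, IL3 and IL5 had 0 counts in every library. A count of 0 allows up to 3 counts, which is 0.129, 0.133 and 0.124 counts per 1000000 in the DMSO, 50 nM and 100 nM libraries.

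CD33 and CD47, the antigens with the most counts, differed little from DMSO. CD33 (chr19:51728335-51743274 in hg19) had 2015, 1910 and 1965 counts. Its log2 fold change was -0.04 at 50 nM (-0.13 to 0.05) and -0.09 at 100 nM (-0.18 to -0.003, adjusted p of the exact test 0.090). CD47 (chr3:107761941-107809935 in hg19) had 1910, 1886 and 1856 counts. For CD47 the log2 fold change was 0.02 at 50 nM (-0.08 to 0.11) and -0.10 at 100 nM (-0.19 to -0.01, adjusted p of the exact test 0.081). Neither gene passed the test at either dose.

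CD44 and CD38 were counted too rarely for a firm comparison. CD44 (chr11:35160417-35253949 in hg19) had 23, 35 and 43 counts, and its log2 fold change was 0.63 at 50 nM (-0.16 to 1.47) and 0.83 at 100 nM (0.08 to 1.64, adjusted p of the exact test 0.063). Its exons overlap those of an unnamed gene on the opposite strand by 75 bases. CD38 (chr4:15779931-15850706 in hg19) had 9, 25 and 16 counts, highest in the 50 nM library. The log2 fold change of CD38 was 1.46 at 50 nM (0.36 to 2.79, adjusted p of the exact test 0.030), 2.75-fold, and 0.74 at 100 nM (-0.49 to 2.13, adjusted p of the exact test 0.40). Between the doses the difference of CD38 was -0.72 (-1.74 to 0.23), within counting error. With a filter of at least 50 counts CD38 and CD44 were not tested, and no gene of the list was then called at 50 nM.

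The myeloid differentiation genes on the list did not pass at either dose. ITGAM (chr16:31271288-31344213 in hg19) had 58, 57 and 62 counts, with log2 fold changes of 0.01 (-0.54 to 0.56) and 0.04 (-0.50 to 0.58). CD86 (chr3:121774221-121839983 in hg19) had 137, 116 and 152 counts, lowest at 50 nM, with log2 fold changes of -0.20 (-0.58 to 0.16) and 0.09 (-0.25 to 0.44). Changes that lie within these intervals were not detectable at this depth. Between the doses, the log2 differences of the 9 genes other than IL3RA ran from -0.72 for CD38 to 0.30 for CD86, and none passed.

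**Figure D4:**
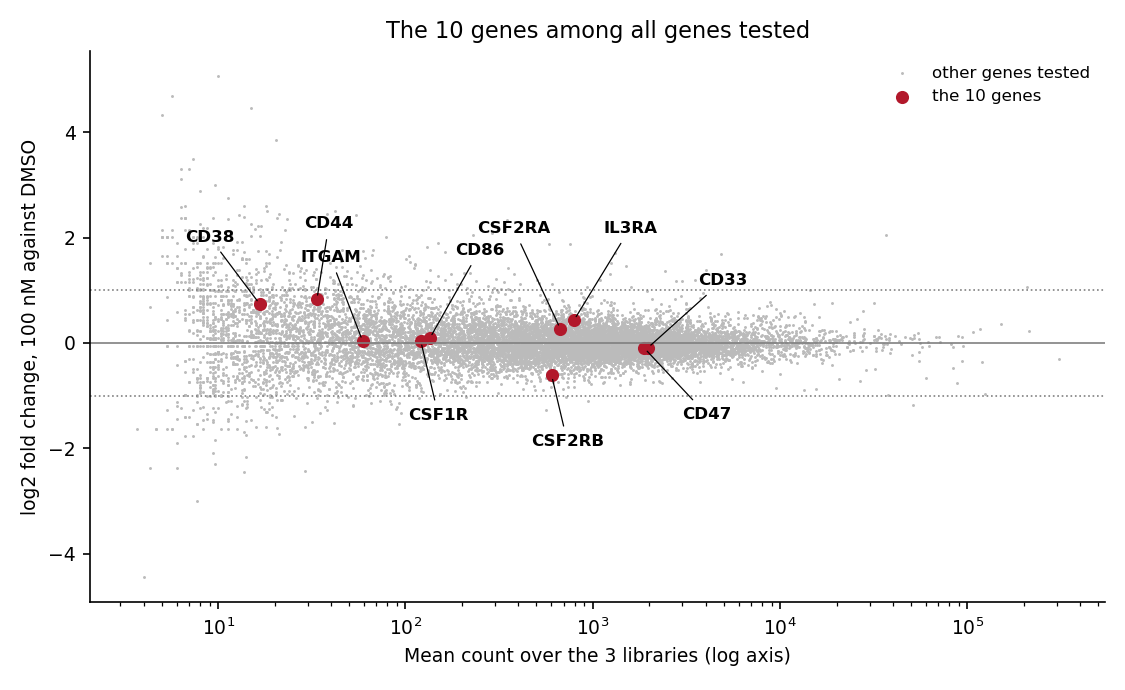
Log2 fold change at 100 nM against DMSO for the 12879 genes tested, against the mean count over the 3 libraries on a log axis, with the 10 genes in red. CSF2RB (-0.62) lies at the lower edge of the genes of like count, IL3RA (0.43) toward the upper edge, and CD44 and CD38 lie in the wide spread of rarely counted genes.

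Related genes were described from lists written for this purpose, at 100 nM against DMSO, where 21.1% of all genes were higher and 22.0% lower. Of 25 other cytokine and growth factor receptors tested, 4 were higher and 6 lower, with a median log2 fold change of -0.04. IL4R, the alpha chain of the interleukin 4 receptor, had 643, 470 and 427 counts and a log2 fold change of -0.65. IL7R, a lymphoid cytokine receptor, had 186, 138 and 126 counts and -0.62. The interleukin 21 receptor gene IL21R was higher, with 33, 39 and 68 counts and 0.97. By the 2 log2 fold changes against DMSO, IL4R was also the gene nearest to CSF2RB among 108 list genes whose count reached 100 in every library, at a distance of 0.160. The nearest to IL3RA was SH2B3, an adaptor that dampens cytokine signaling, with 1516, 1732 and 2197 counts at a distance of 0.064. The nearest to CSF2RA was the adhesion receptor gene ADGRE2, with 1005, 1090 and 1253 counts at a distance of 0.019.

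Of 32 genes of receptor-proximal signaling tested, 8 were higher and 11 lower, with a median of 0.01. The adaptor gene GAB2 had 2274, 2820 and 3499 counts and a log2 fold change of 0.56. DOK2, an adaptor that restrains tyrosine kinase signaling, had 1631, 1202 and 1187 counts and -0.52. SOCS3, a feedback inhibitor induced by cytokines, had 57, 41 and 34 counts and -0.79. The list thus held genes in both directions.

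Of 19 other leukemia surface antigens tested, 6 were higher and 2 lower, with a median of -0.06. The receptor tyrosine kinase FLT3 had the most counts among the higher genes, with 6304, 9012 and 11181 counts and a log2 fold change of 0.77. The inhibitory receptor LILRB4 had 366, 495 and 543 counts and 0.51, and SIGLEC6, a relative of CD33, had 38, 56 and 72 counts and 0.86. Lower genes were the transferrin receptor TFRC, with 14050, 14228 and 12698 counts and -0.20, and the TNF family ligand CD70, with 1008, 845 and 922 counts and -0.19. CD34, the stem and progenitor antigen, had 0 counts in every library.

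Of 13 integrins tested, 4 were higher and 1 lower, with a median of 0.02. ITGAL, which pairs with ITGB2 to form LFA-1, had 22811, 31895 and 40424 counts and a log2 fold change of 0.77. ITGAX, which encodes CD11c and is a close relative of ITGAM, had 33, 72 and 91 counts and 1.39. ITGB7 had 191, 287 and 389 counts and 0.97, and its partner ITGA4 had 9975, 13044 and 15358 counts and 0.57. The shared beta chain of ITGAM, ITGAX and ITGAL, encoded by ITGB2, had 4266, 4217 and 4385 counts and -0.02 and did not pass.

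Of 17 genes of monocyte and macrophage differentiation tested, 4 were higher and 3 lower, with a median of -0.12. The matrix proteoglycan gene VCAN had 1768, 3026 and 4183 counts and a log2 fold change of 1.19. The lower genes were TLR2 (-0.40), CD83 (-0.36) and CTSS (-0.19). The Fc receptor gene FCGR2B had 52, 26 and 35 counts and -0.62, which did not pass, and the lysozyme gene LYZ had 7607, 7067 and 7768 counts and -0.03. CD14, the monocyte coreceptor for lipopolysaccharide, had 2, 2 and 1 counts.

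Of 10 genes of the CD47 checkpoint and phagocytosis tested, 1 was higher and 4 lower, with a median of -0.09. SIRPA, the receptor of CD47, had 2287, 1818 and 1758 counts and a log2 fold change of -0.44. CALR, an endoplasmic reticulum chaperone that also acts as a phagocytic signal on the surface of dying cells, had 33552, 25031 and 21108 counts and -0.73. B2M, the only higher gene of this list, had 19091, 18694 and 20944 counts and 0.08. Of 7 ligands of the listed genes tested, 1 was higher and 2 lower, with a median of -0.15. The higher gene was CD28, a receptor of CD86, with 1, 4 and 17 counts and a log2 fold change of 3.49 (1.36 to 9.42). It met the filter of 10 counts only in the 100 nM library, where it was higher, so its place in the count is no support for a change. The lower genes were SIRPA and SRGN, a proteoglycan core protein, with 24845, 22861 and 23301 counts and -0.15.

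Of 11 genes of the first pseudoautosomal region tested, IL3RA and CSF2RA among them, 5 were higher and 1 lower, with a median of 0.04. SLC25A6, a mitochondrial ADP/ATP carrier gene, had 20156, 23344 and 27623 counts and a log2 fold change of 0.40. The G protein-coupled receptor gene P2RY8 had 6652, 6941 and 7479 counts and 0.11, and CD99, an adhesion antigen, had 1181, 1032 and 1179 counts and -0.06. Of 9 genes of NAD and adenosine ectoenzymes and of NAD synthesis tested, a list related to CD38, 2 were higher and 1 lower, with a median of 0.07. Among the higher was NMNAT1, an enzyme of nuclear NAD synthesis, with 157, 200 and 245 counts and 0.58. Of 4 Siglec genes tested beside CD33, 1 was higher, SIGLEC6, and the median was 0.29. That median rests partly on rarely counted genes, SIGLEC9 with 12, 7 and 9 counts and SIGLEC14 with 10, 23 and 14. Each list is described by counts and a median only, and nothing is claimed to set a list apart from all genes tested.

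**Figure D5:**
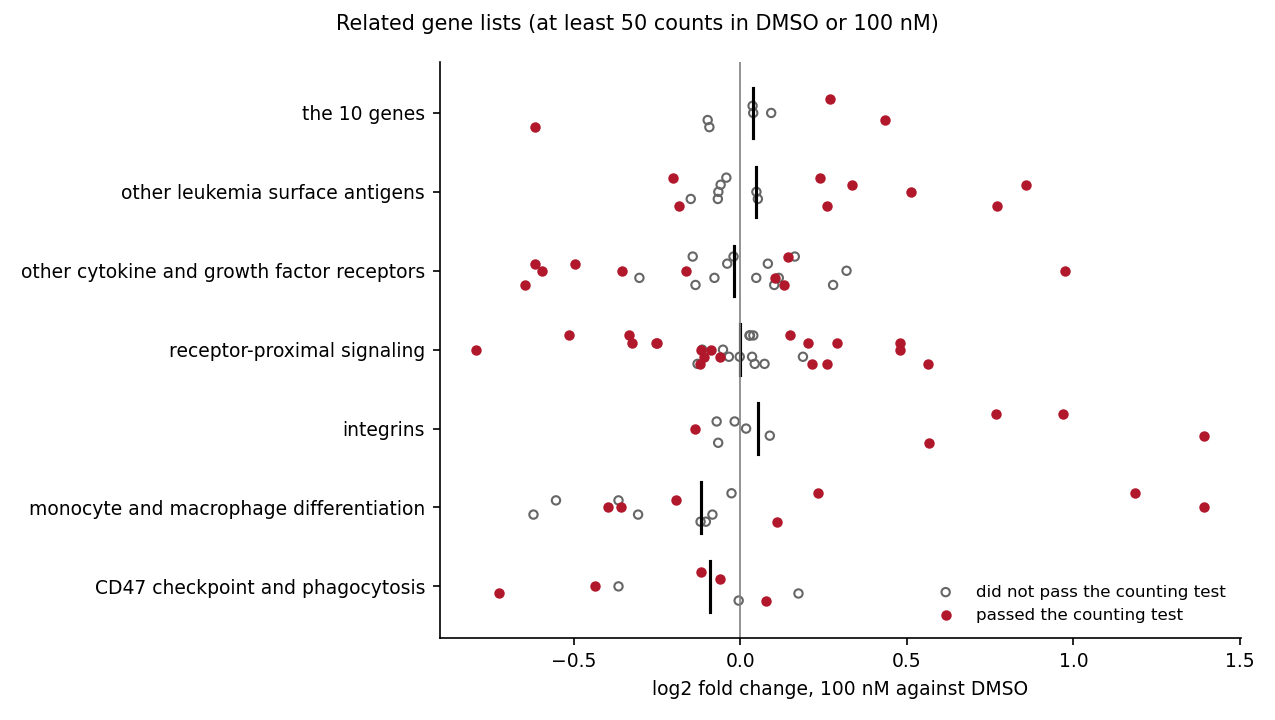
Log2 fold change at 100 nM against DMSO for genes of 7 lists with at least 50 counts in either library. Filled points passed the exact binomial test after adjustment, open points did not, and black bars are medians. Of the 10 genes, 8 had enough counts to be drawn, and their median was 0.04.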

How the data were processed

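Total RNA of Molm13 cells was sequenced by the authors from strand-specific mRNA libraries as paired 75-base reads, aligned to hg19 with Rsubread and counted per gene. The deposited values are raw counts per Entrez gene, with exon positions and lengths. The strand setting of the counting and the handling of reads that map to several places are not given in the sources used here. The authors' EBSeq comparison table, which holds posterior probabilities, fold changes and means per condition, was not used.

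Samples were grouped by their titles. Library sizes were scaled by TMM (edgeR 4.0.16, R 4.3.3) over genes that reached 10 counts in any library. For each pair of libraries, an exact binomial test (two-sided, 2 times the smaller tail, scipy 1.17.1) asked whether the split of a gene's counts departed from the scaled sizes, adjusted by Benjamini-Hochberg over all genes tested at 0.05. For log2 fold changes, 0.5 was added to each count, and 95% Clopper-Pearson intervals of the ratio cover counting error only. Reads without molecular identifiers are not independent molecules. Levels were divided by exon length, with the length of 1 copy for the 20 genes listed on both X and Y, whose deposited length adds both copies.

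All members were named. From each list the genes with the 3 highest levels per length in DMSO and the 3 largest changes at 100 nM among genes with at least 50 counts were eligible, and other genes named were chosen after their values were seen. The members and lists were chosen with earlier results of these data known. GTPBP6 of the pseudoautosomal list was not found by symbol. Simulated counts with 200 changed genes gave 199 calls of those genes at 50 nM, 199 at 100 nM and 200 between doses, among 12879 genes, and interval coverage was 95.5% to 95.7%. The planted changes were all larger than 2-fold, in genes with at least 50 expected counts, and the counts varied by counting error only. The simulation therefore checks the calculation and does not show how well smaller changes or rarely counted genes are found. Alternatives were scaling by DESeq2 1.42.0 or by total counts, TMM with mitochondrial transcripts left out, no filter, a filter of 50 counts, a 1.5-fold threshold, 5 counts added, edgeR's exact test at assumed values of the biological coefficient of variation, a dose trend and, added after seeing the data, the deposited length.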

Additional observations from a re-analysis of the deposited data

How the results depend on the processing

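Each condition has 1 library, so the spread between cultures could not be estimated and no library could be left out. No paired analysis was possible with a single library in each group. When a biological coefficient of variation was assumed in edgeR's exact test, the count of the 10 genes past the test without a fold threshold fell to 0 in every comparison, at an assumed 0.1, at 0.2 and at 0.4. The count called at 2-fold fell to 0 at 50 nM under each of these values and was 0 in the other comparisons from the start. At 0.1, 36 of all genes passed at 50 nM, 244 at 100 nM and 16 between the doses. At 0.2 these counts were 0, 12 and 4, and at 0.4 they were 0 in each comparison. With a filter of at least 50 counts, CD38 and CD44 were not tested. At 50 nM the count called at 2-fold was then 0 and the count past counting error was 1 (CSF2RB). With a 1.5-fold threshold, 1 gene was called at 100 nM, CSF2RB. The share of all genes was not counted under the filter of 50 counts or the 1.5-fold threshold. Neither count can therefore be set against all genes. A straight-line trend with dose, fitted with 1 residual degree of freedom, gave 2 of the 10 genes, 1 higher and 1 lower, and 2633 of all genes. With the deposited lengths, 4 of the 10 ranks in DMSO changed: CD47 was above IL3RA, and CSF2RB was above CSF2RA, since the deposited length counts both copies of IL3RA and CSF2RA. Other scalings moved log2 fold changes by at most 0.0036 at 50 nM, 0.0014 at 100 nM and 0.005 between doses. Under the other scalings, filters and added counts, 174 alternative values of the log2 fold changes of the 10 genes kept their direction and their side of the threshold. At 9 to 62 counts, as for CD38, CD44 and ITGAM, depth limits what can be seen.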
